A study of Mus musculus with 13 samples.

Results

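The chemokine ligand genes of the mouse were followed in whole-liver RNA. The 35 members were taken by gene symbol from a table of 22048 genes, through their Ensembl identifiers, and all 35 were found, each in 1 row. The 13 livers formed 3 groups. Control livers (n = 6; replicates 1, 2 and 6 male, replicates 3, 4 and 5 female) kept their hepatic stellate cells, the vitamin A-storing pericytes of the sinusoids. Livers from which hepatic stellate cells had been depleted (n = 4; replicate 3 male, the others female) are called depleted here. Livers taken 72 h after partial hepatectomy (n = 3; replicates 1 and 2 male, replicate 3 female), an operation that takes out some of the liver lobes, had not been depleted of stellate cells. The means of depletion, any agent or allele that the groups share, the strain, the age and the interval between depletion and sampling are not given in the sources used here. The labels do not state that each library came from a different animal, so p-values measure the spread between these samples, which may in part be technical.

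Chemokines are small proteins that draw leukocytes along a gradient by acting on G protein-coupled receptors of the CCR, CXCR, XCR and CX3CR families. Inflammatory chemokines are switched on by interferon gamma, tumour necrosis factor, interleukin 1 and the NF-kappa B factors, whereas homeostatic chemokines are made steadily and position lymphocytes and progenitor cells. In liver they are made by Kupffer cells, endothelium, stellate cells, cholangiocytes, hepatocytes and the leukocytes that enter the tissue, so a ligand's level in whole-liver RNA does not name its source.

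Ligands that moved together are shown with the bases before their transcription starts. The CXCR3 ligands Cxcl9 and Cxcl10 were high in depleted livers, and the neutrophil attractants Cxcl1 and Cxcl2 were high in depleted and in hepatectomised livers, as the values further on show. The windows come from RefSeq (GRCm38.p6), run 5′ to 3′ on the gene's strand and end where the annotated gene begins. Capitals mark matches to any of 4 motifs searched on both strands.
Cxcl9 (chr5:92328080-92328329, minus strand): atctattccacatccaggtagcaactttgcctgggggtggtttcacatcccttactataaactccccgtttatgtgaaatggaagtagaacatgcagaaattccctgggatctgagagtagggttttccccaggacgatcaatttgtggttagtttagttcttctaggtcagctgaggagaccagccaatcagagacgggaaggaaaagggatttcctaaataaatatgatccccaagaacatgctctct
Cxcl10 (chr5:92348890-92349139, minus strand): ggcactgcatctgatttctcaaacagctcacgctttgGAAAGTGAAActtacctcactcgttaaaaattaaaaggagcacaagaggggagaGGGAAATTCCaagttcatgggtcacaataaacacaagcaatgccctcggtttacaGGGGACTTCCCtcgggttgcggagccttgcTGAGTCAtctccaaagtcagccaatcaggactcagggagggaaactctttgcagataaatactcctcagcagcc
Cxcl1 (chr5:90890995-90891240, plus strand): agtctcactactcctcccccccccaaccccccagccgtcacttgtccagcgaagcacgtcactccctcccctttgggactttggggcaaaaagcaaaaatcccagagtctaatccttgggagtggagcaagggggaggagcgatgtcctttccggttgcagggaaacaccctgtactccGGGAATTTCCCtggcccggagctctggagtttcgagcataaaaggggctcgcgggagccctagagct
Cxcl2 (chr5:90903649-90903870, plus strand): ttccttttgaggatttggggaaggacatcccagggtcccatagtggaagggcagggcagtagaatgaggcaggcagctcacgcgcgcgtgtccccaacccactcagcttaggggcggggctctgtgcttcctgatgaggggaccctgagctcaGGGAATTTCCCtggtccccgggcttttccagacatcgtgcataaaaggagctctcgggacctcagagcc
The windows of Cxcl1 and Cxcl2 carry the same 11 letters, GGGAATTTCCC, which match the kappa B consensus on either strand. The Cxcl10 window holds the core of the interferon-stimulated response element (GAAA, 2 bases of any kind, GAAA) as GAAAGTGAAA, 3 kappa B matches (GGGAAATTCC, and GGGGACTTCC overlapping GGGACTTCCC) and the AP-1 letters TGAGTCA. The printed Cxcl9 window holds none of the 4, which says only that these letters are not in it. Of 35 ligands, 25 had an entry in the promoter table. Within 250 bases before the start, the kappa B consensus was present for 5 of the 25 (Ccl9, Cxcl1, Cxcl10, Cxcl2 and Cxcl3) and at 7.25% of all 32851 starts. The response element core was present for 3 ligands (Ccl19, Cxcl10 and Cxcl14) and at 2.98% of starts, the gamma-activated site core TTCNNNGAA for 2 (Ccl17 and Cxcl14) and at 7.02%, and the AP-1 site TGANTCA for 4 (Ccl27a, Ccl9, Cxcl10 and Ppbp) and at 6.75%. A ligand was counted if any of its starts matched, whereas the percentages are over single starts, so the counts and percentages are not compared. These matches are descriptions of letters, not of binding.

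Library totals ran from 35360991 to 51008737 counts, at which 3 counts correspond to 0.0524 to 0.0900 CPM, the counts scaled to a common library total after TMM scaling. Reads carried no molecular identifiers, so this floor covers counting error only. Hepatocyte markers summed to 65963 to 170159 CPM over the 13 livers. The summed level of 10 stellate cell markers lay between 279 and 735 CPM in controls and between 302 and 582 CPM after hepatectomy, and was 14.4, 14.7, 18.2 and 62.7 CPM in depleted replicates 1 to 4. All 10 were called lower in depleted livers, as were 15% of all genes, and 0 of 10 were called after hepatectomy, where 8.42% of all genes were, by the test given further on. Depleted replicate 4 thus held the most stellate cell transcripts of its group. Control replicate 6 had the lowest Kupffer cell sum of the controls (75.3 CPM, the other 5 between 409 and 598 CPM), the lowest endothelial sum (84.2 CPM, the others 264 to 386 CPM) and the lowest stellate cell sum (279 CPM, the others 502 to 735 CPM). Its hepatocyte, monocyte, dendritic cell and neutrophil sums were also the lowest of the controls. In whole-liver RNA, fewer cells of a type and less RNA per cell cannot be told apart.

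The baseline of the control liver was set by few ligands. Levels of different genes were compared per kilobase (kb) of the gene length in the deposited table. In controls, Cxcl12, the homeostatic ligand of CXCR4, was the highest of the 35 at 48.2 CPM per kb, and Ccl9, a CCR1 ligand of myeloid cells, followed at 28.8 CPM per kb. Each lay apart from the next ligand in the order over all 6 controls, whereas 32 of the 34 neighbouring pairs overlapped. Next came Cxcl9 at 4.50, Ccl6 at 4.07 and Cxcl1 at 3.01 CPM per kb, which overlapped one another. Cxcl12 made up 46.1% ± 5.74 (SD, n = 6) of the ligands' summed level per kb in controls and Ccl9 made up 26.9%.

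The order differed in the other groups. In depleted livers Cxcl9 led at 122 CPM per kb, ahead of Ccl24 at 58.5, Ccl9 at 49.4, Ccl5 at 40.0 and Cxcl12 at 34.9, and all 34 neighbouring pairs overlapped. Cxcl9 made up 29.2% ± 5.58 (SD, n = 4) of the summed level there, against 4.12% in controls, and Cxcl12 made up 9.48%. After hepatectomy Cxcl1 led by its mean of 114 CPM per kb and made up 44.7% ± 22.5 (SD, n = 3) of the sum, with a range over the 3 livers of 18.9% to 60.3%. It overlapped there with Ccl9, the next in the order (37.1 to 167 against 46.4 to 49.0 CPM per kb). Summed over the 35 ligands, controls had 106 ± 14.5 CPM per kb (SD, n = 6), against 406 ± 117 for the depleted livers (SD, n = 4) and 242 ± 41.3 for the hepatectomised ones (SD, n = 3), and the ranges of depleted (267 to 541) and hepatectomised livers (197 to 277) both lay above that of controls (88.4 to 125).

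**Figure D1:**
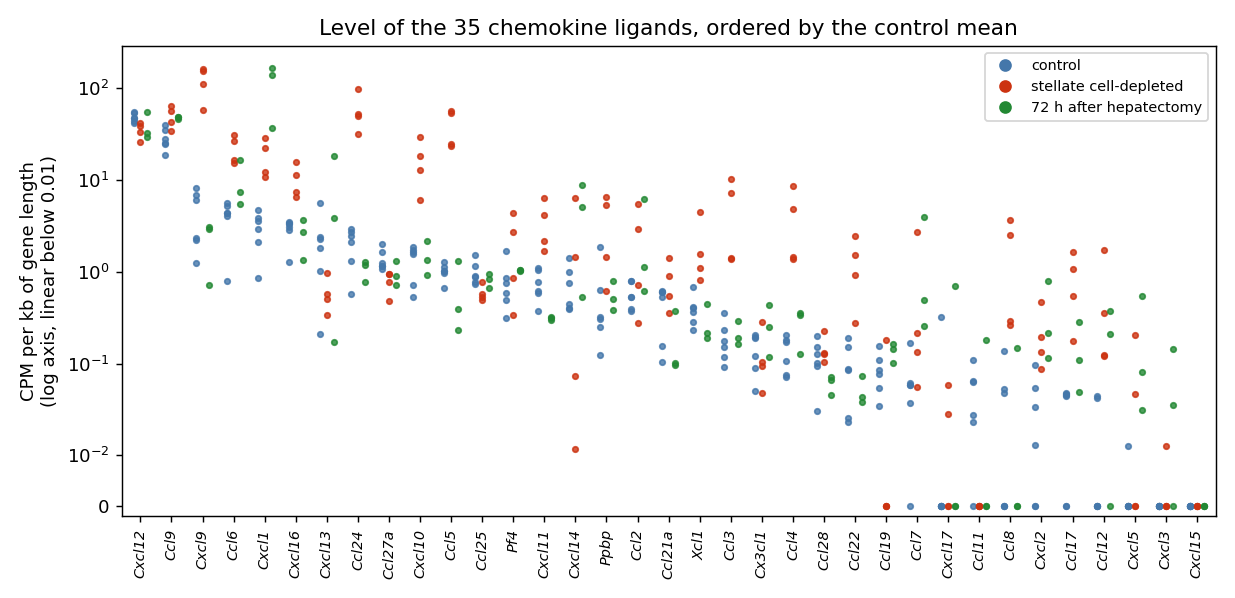
Level of each of the 35 chemokine ligands in CPM per kb of gene length (log axis, linear below 0.01), 1 point per liver, with genes ordered by the control mean. Cxcl12 and Ccl9 stand above the rest in controls (48.2 and 28.8 CPM per kb), and Cxcl9, Ccl24 and Ccl5 join them in depleted livers (122, 58.5 and 40.0 CPM per kb).

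Chemokine ligands rose widely in depleted livers and narrowly after hepatectomy. By edgeR's quasi-likelihood test with Benjamini-Hochberg adjustment over 13831 genes and a threshold of 0.05, 17 of the 27 ligands with enough counts were higher in depleted than in control livers and 0 were lower. Over all genes tested, 33.9% changed in that comparison, 18.9% upward and 15% downward (20.9% and 10.6% with library-size scaling, where 18 ligands were called). The median log2 fold change of the 27 was 2.24, against -0.03 over all genes, and was 1.54 without depleted replicate 4. CPM ranges lay wholly above those of controls for 13 of the 27 and wholly below for 2, against 16.5% and 11.9% of all genes. The filter on low counts used the groups, so a ligand low elsewhere could enter the 27 through depleted livers. A call of higher is then likely. Ccl17 (0 to 1 counts in each control), Ccl3 (3 to 11) and Ccl4 (2 to 5) had most of their counts in depleted livers. Without the filter, 19 of 34 ligands were higher and 0 lower, beside 15.7% and 11.8% of all genes. The same limit holds for the other gene lists tested.

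Against the same 6 controls, hepatectomised livers were higher in 4 of the 27 ligands and lower in 0, where 8.42% of all genes changed, 6.06% upward and 2.36% downward. With library-size scaling these shares were 4.53% and 11.3%, with the same number of ligands called. The median over the ligands was 0.08, against -0.02 over all genes. Ranges lay above those of controls for 5 ligands and below for 1, against 7.41% and 6.25% of genes. The 4 were Cxcl1, Cxcl2, Ccl7 and Ccl9. Their count was 1 without control replicate 1, 5 or 6 or hepatectomised replicate 2, and 2 without control replicate 2 or 3 or hepatectomised replicate 3, and Cxcl1 was past the threshold in every such fit. All-gene shares in these fits ran from 3.46% to 7.05%.

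Depleted livers were then set directly against hepatectomised livers. In this comparison 12 ligands were higher and 2 lower in depleted livers, where 23.4% of genes changed, 13.3% upward and 10.1% downward, or 22.4% and 4.41% with library-size scaling and 15 ligands called. The median was 1.41, against -0.05 over all genes. Ranges lay apart upward for 11 and downward for 1, against 18.1% and 15.9% of genes. Without depleted replicate 3, 9 ligands were past the threshold instead of 14, and 12.3% of all genes. The 3 comparisons share their livers pairwise, so their values are given side by side and not as independent evidence.

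**Figure D2:**
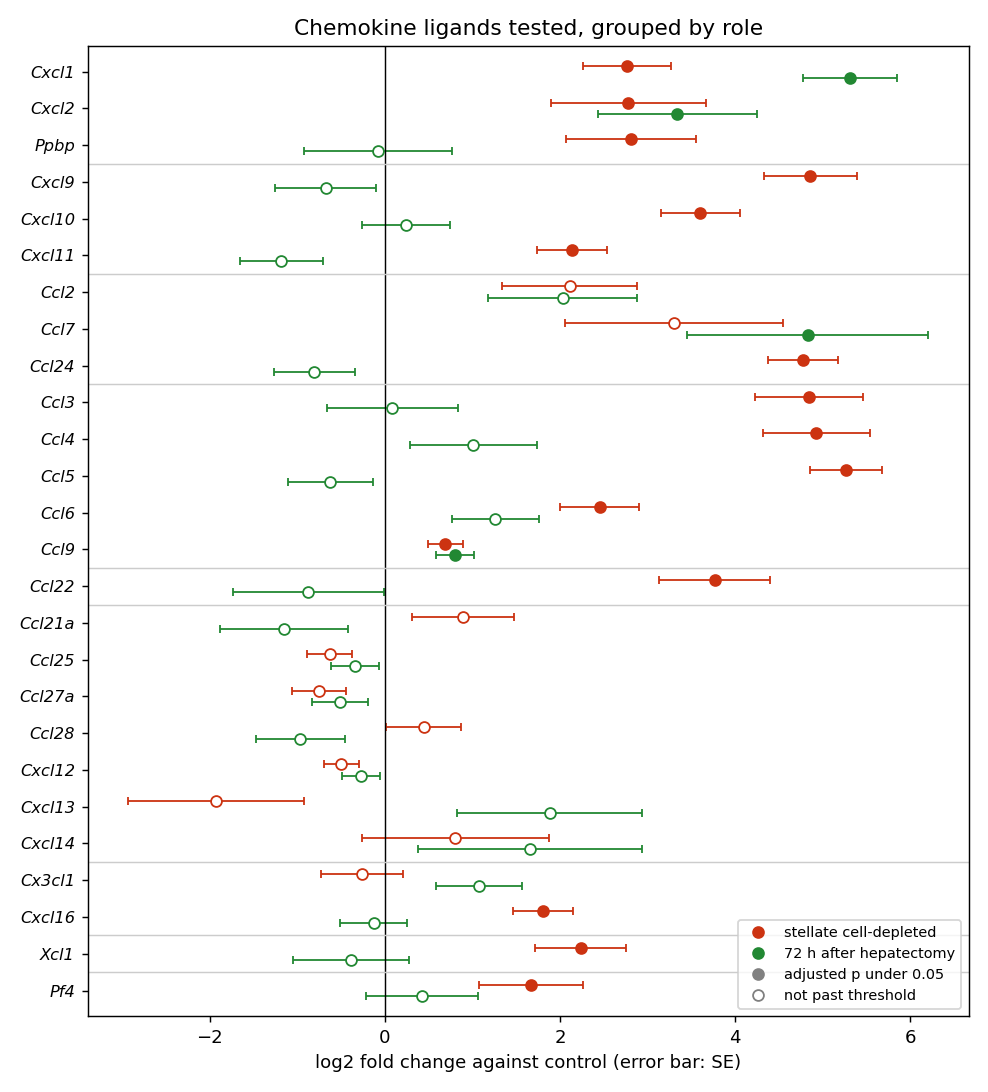
Log2 fold change against control of 26 of the 27 ligands tested, grouped by role, in depleted (red) and hepatectomised (green) livers, with the standard error as a bar; filled points have an edgeR adjusted p under 0.05. Red points are filled for 16 ligands and green points for 4; Ccl17, with 0 to 1 counts in each control, is not drawn.

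The CXCR3 ligands draw activated T cells and natural killer (NK) cells and are classical targets of interferon gamma. All 3 were higher in depleted livers. Cxcl9 ran from 3.72 to 24.9 CPM in controls (median 12.6), was 338, 173, 471 and 488 CPM in depleted replicates 1 to 4 and 9.41, 2.16 and 8.93 CPM in hepatectomised replicates 1 to 3. Every depleted liver was thus above every other liver, by a log2 fold change of 4.86 ± 0.53 (SE) over controls (29.0-fold, edgeR adjusted p = 3.86e-05) and of 5.54 ± 0.74 over hepatectomised livers (edgeR adjusted p = 0.000415). Without depleted replicate 3 these were log2 4.13 and 4.58, and the latter was 6.19 without hepatectomised replicate 1. Cxcl10 ran from 1.20 to 4.19 CPM in controls (median 3.61), was 29.3, 13.7, 41.4 and 66.2 CPM in depleted livers and 2.06, 4.86 and 3.07 CPM after hepatectomy. The depleted values again lay above all others, 12.1-fold over controls (log2 3.60 ± 0.45, edgeR adjusted p = 9.78e-05). Cxcl11, which GENCODE annotates as a polymorphic pseudogene because some mouse strains carry a disrupted copy, ran from 0.593 to 1.75 CPM in controls (median 1.10), was 6.66, 2.64, 3.42 and 10.02 CPM in depleted livers and 0.4997, 0.505 and 0.474 CPM after hepatectomy. Its hepatectomised livers lay below all controls without passing the test (log2 -1.18 ± 0.47, edgeR adjusted p = 0.146), and its depleted livers were 4.39-fold above controls (edgeR adjusted p = 0.00118).

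In control livers, Cxcl9 did not overlap between the sexes. The 3 female controls had 18.3 to 24.9 CPM and the 3 males 3.72 to 6.97 CPM. For Cxcl10 the females had 3.69 to 4.19 CPM and the males 1.20 to 3.53 CPM. Cxcl1 went the other way, with 6.75 to 8.85 CPM in males and 1.596 to 5.501 CPM in females. In all, 4 of the 27 tested ligands lay wholly higher in female controls (Cxcl9, Cxcl10, Ccl22 and Cx3cl1) and 3 in male controls (Cxcl1, Ccl27a and Pf4), against 10.2% and 10% of all genes. In female livers alone the log2 fold change of depletion was 3.96 for Cxcl9 (edgeR adjusted p = 0.000734) and 3.20 for Cxcl10 (edgeR adjusted p = 0.0066). Markers of T and NK cells moved with these ligands. Their summed level was 3.03 to 6.28 CPM in controls, 61.8, 55.5, 113 and 138 CPM in depleted replicates 1 to 4 and 4.38 to 6.11 CPM after hepatectomy. Of these markers 9 of 9 were higher in depleted livers, against 18.9% of all genes, and no marker of the list was at 0 in any liver. Their part in the result was not tested.

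The macrophage inflammatory CC ligands, Ccl3, Ccl4, Ccl5, Ccl6 and Ccl9, recruit monocytes, T cells and other effector leukocytes. All 5 were higher in depleted livers. Ccl5, made chiefly by T and NK cells, ran from 0.643 to 1.23 CPM in controls (median 0.987), was 23.7, 22.7, 54.9 and 52.2 CPM in depleted livers and 0.382, 0.225 and 1.27 CPM after hepatectomy. Depleted livers were 38.5-fold above controls (log2 5.27 ± 0.41, edgeR adjusted p = 4.84e-06; log2 4.65 without depleted replicate 3), with no overlap. Ccl3 ran from 0.0708 to 0.272 CPM in controls (median 0.125), was 1.07, 1.05, 5.55 and 7.89 CPM in depleted livers and 0.147, 0.225 and 0.125 CPM after hepatectomy. Ccl4, its neighbour on chromosome 11, ran from 0.0472 to 0.134 CPM in controls (median 0.0913), was 0.921, 0.963, 3.16 and 5.75 CPM in depleted livers and 0.235, 0.0842 and 0.224 CPM after hepatectomy. For both, depleted replicates 3 and 4 stood above replicates 1 and 2, and all 4 stood above the other livers (log2 4.84 ± 0.62 for Ccl3 and 4.93 ± 0.61 for Ccl4 over controls, edgeR adjusted p = 9.11e-05 and 7.86e-05; log2 3.99 and 4.18 without depleted replicate 4).

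Ccl6 and Ccl9 are rodent CCR1 ligands of macrophages and other myeloid cells. Ccl6 ran from 1.44 to 10.1 CPM in controls (median 7.91), was 27.6, 29.9, 47.5 and 55.1 CPM in depleted livers and 29.6, 9.88 and 13.2 CPM after hepatectomy. Depleted livers were 5.47-fold above controls (log2 2.45 ± 0.45, edgeR adjusted p = 0.00133), and hepatectomised livers overlapped with controls (log2 1.26 ± 0.50, edgeR adjusted p = 0.144). Ccl9 ran from 56.5 to 122 CPM in controls (median 81.4), was 174, 195, 104 and 130 CPM in depleted livers and 149, 141 and 147 CPM after hepatectomy. It rose 1.61-fold in depleted livers (edgeR adjusted p = 0.0192) and 1.74-fold after hepatectomy (edgeR adjusted p = 0.0382). The first was lost without depleted replicate 2 (log2 0.58, edgeR adjusted p = 0.0556). The second was lost without control replicate 1, 2, 5 or 6 or any hepatectomised liver (largest edgeR adjusted p = 0.119, without hepatectomised replicate 2). Kupffer cell markers summed to 75.3 to 598 CPM in controls, 1091, 953, 1539 and 2102 CPM in depleted livers and 83.2 to 825 CPM after hepatectomy. Of these markers 5 of 8 were higher in depleted livers, against 18.9% of all genes, and none was at 0. Within that list the Kupffer-restricted lectin Clec4f went the other way and was lower on average in depleted livers, without a call (mean 18.8 CPM, against 111 CPM in controls, edgeR adjusted p = 0.0872). The sum of the list therefore does not follow this marker. Monocyte markers were higher for 7 of 8 in depleted and 2 of 8 in hepatectomised livers, against 18.9% and 6.06% of all genes. Their median log2 fold changes were 3.80 and 0.60. Their sums, which weigh abundant markers most, were 1292 to 2239 CPM in controls, 2029 to 2810 CPM in depleted and 2149 to 2708 CPM in hepatectomised livers. The part of either list in the result was not tested.

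The ELR-motif CXC ligands act on CXCR2 and draw neutrophils. Cxcl1 rose in both groups. It ran from 1.596 to 8.85 CPM in controls (median 6.13), was 54.0, 20.4, 42.3 and 22.7 CPM in depleted livers and 69.6, 259 and 314 CPM in hepatectomised livers. The 3 groups did not overlap, with controls lowest and hepatectomised livers highest. The rise over controls was 39.6-fold after hepatectomy (log2 5.31 ± 0.54, edgeR adjusted p = 0.000277; log2 4.54 without hepatectomised replicate 3) and 6.77-fold in depleted livers (log2 2.76 ± 0.50, edgeR adjusted p = 0.0012). Depleted livers were 5.84-fold below hepatectomised livers (edgeR adjusted p = 0.00753), a difference that was lost without hepatectomised replicate 3 (log2 -1.62, edgeR adjusted p = 0.127).

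Cxcl2, close to Cxcl1 on chromosome 5, was far lower. It ran from 0 to 0.198 CPM in controls (median 0.0485), was 0.278, 0.179, 0.402 and 0.9801 CPM in depleted livers and 0.235, 1.66 and 0.449 CPM after hepatectomy. Hepatectomised livers lay above all controls, and depleted replicate 2 lay within their range. The log2 fold changes over controls were 2.78 ± 0.88 in depleted livers (edgeR adjusted p = 0.0275) and 3.34 ± 0.91 after hepatectomy (edgeR adjusted p = 0.0407). The former was lost without control replicate 1, 3 or 5 or depleted replicate 3 or 4 (edgeR adjusted p up to 0.0819, at log2 2.08 without depleted replicate 4). The latter was lost without control replicate 1, 3, 5 or 6 or hepatectomised replicate 2 or 3 (edgeR adjusted p up to 0.249, at log2 2.24 without hepatectomised replicate 2), and its log2 fold change was 4.13 without control replicate 2. Controls held 0 to 8 counts of Cxcl2 each, so its fold is poorly fixed.

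Ppbp, the platelet basic protein precursor, ran from 0.134 to 2.01 CPM in controls (median 0.337), was 1.56, 0.672, 5.85 and 7.13 CPM in depleted livers and 0.412, 0.870 and 0.549 CPM after hepatectomy. Depleted replicates 3 and 4 were above every control, and replicates 1 and 2 overlapped with controls (log2 2.81 ± 0.74, edgeR adjusted p = 0.0111; 0.0634 without depleted replicate 3; log2 2.04 without depleted replicate 4 and 3.41 without control replicate 6). It was also called over hepatectomised livers (edgeR adjusted p = 0.0478), a call lost without any 1 hepatectomised liver and without depleted replicate 1, 3 or 4 (edgeR adjusted p up to 0.138). Pf4, platelet factor 4, is encoded beside it. It ran from 0.225 to 1.21 CPM in controls (median 0.481), was 0.621, 0.246, 1.96 and 3.12 CPM in depleted livers and 0.764, 0.730 and 0.748 CPM after hepatectomy. Its rise was the call nearest the threshold among the 17 in depleted against control livers (log2 1.67 ± 0.60, edgeR adjusted p = 0.0470) and was lost without any control but replicate 2 and without depleted replicate 3 or 4 (edgeR adjusted p up to 0.219, at log2 0.78 without depleted replicate 4). The summed level of 5 megakaryocyte and platelet markers was 2.14 to 4.56 CPM in controls, 9.40, 5.80, 18.0 and 15.8 CPM in depleted livers and 2.58 to 5.29 CPM after hepatectomy. Both markers of that list with enough counts were higher in depleted livers, as were 18.9% of all genes. Gp9, Gp1bb, Gp5 and Treml1 were at 0 in some controls, and the list's part in the result was not tested. The other ELR ligands had too few counts for the test. Cxcl5 had 0 to 1 counts in controls, 0 to 17 in depleted and 2, 36 and 6 in hepatectomised livers, Cxcl3 had 0, 0 to 2 and 0, 18 and 5 counts, and Cxcl15 had 0 counts in all 13 libraries. In a fit without the filter on low counts, Cxcl5 was past the threshold after hepatectomy (edgeR adjusted p = 0.0371) and not in depleted livers (0.0590), and Cxcl3 in neither (0.0773 and 0.431).

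Markers of neutrophils moved with these ligands in both groups. Their sum was 0.660 to 4.74 CPM in controls, 354, 265, 341 and 156 CPM in depleted replicates 1 to 4 and 33.0, 29.4 and 18.5 CPM in hepatectomised replicates 1 to 3. Of 8 markers, 8 were higher in depleted and 6 in hepatectomised livers, against 18.9% and 6.06% of all genes, and Ly6g was at 0 in all 6 controls. Cxcl1 was highest after hepatectomy and the neutrophil sum highest in depleted livers. Within the depleted group, replicates 1 and 3 were first and second in both, and within the hepatectomised group replicate 3 had the most Cxcl1 and the lowest neutrophil sum. Cholangiocyte markers, of which 2 of 4 were higher after hepatectomy and 1 of 4 in depleted livers (6.06% and 18.9% of all genes), summed to 4.54 to 6.34 CPM in controls, 12.3 to 18.0 CPM after hepatectomy and 4.80 to 15.7 CPM in depleted livers. The part of these markers in the result was not tested.

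**Figure D3:**
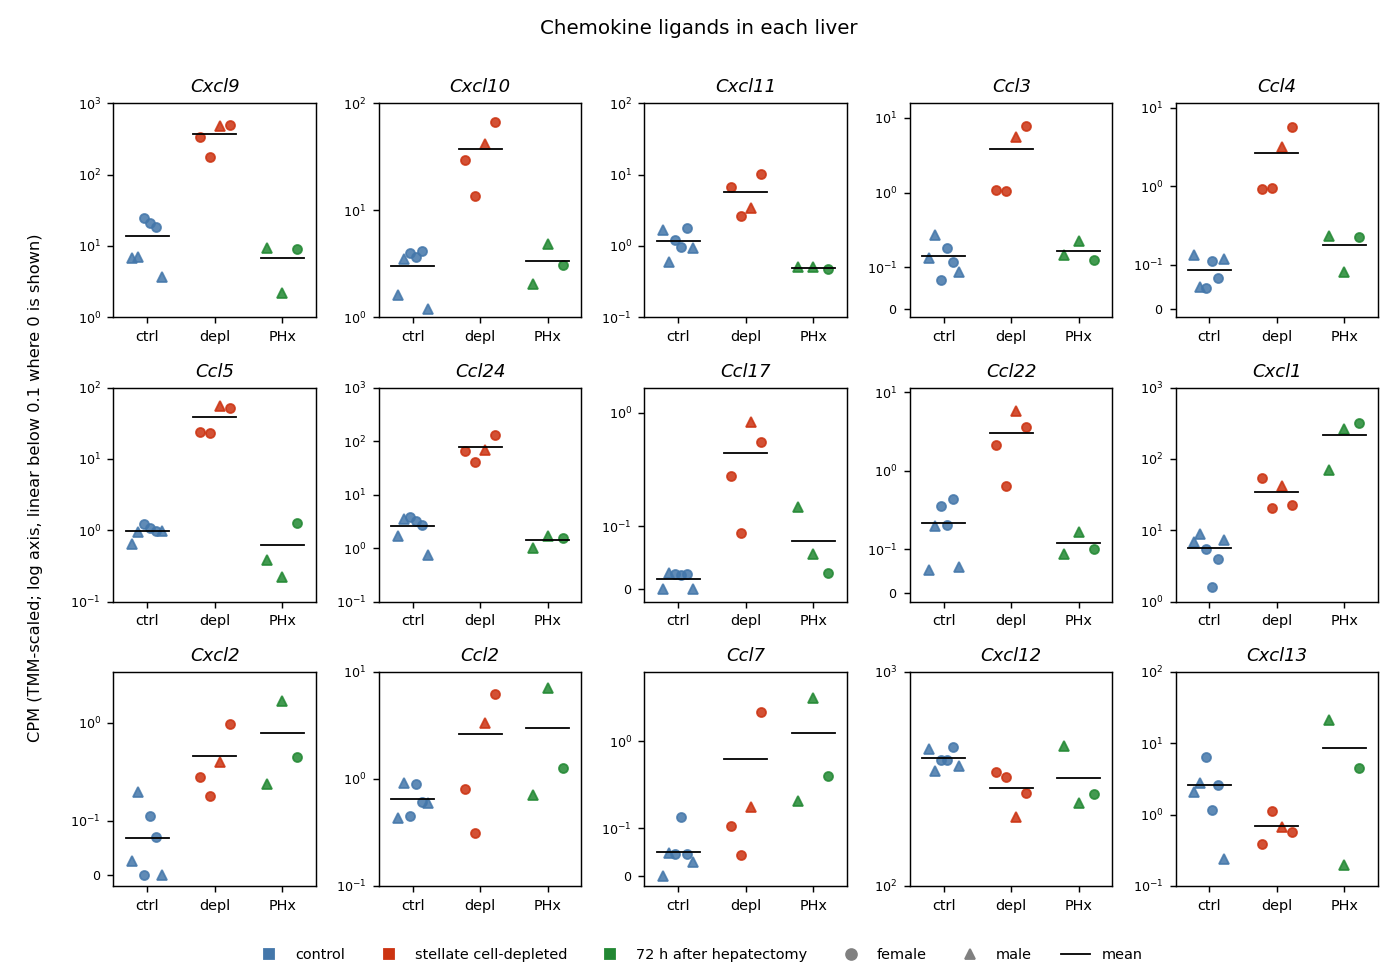
CPM (TMM-scaled, log axes, linear below 0.1 where 0 is shown) of 15 ligands in each control (ctrl), depleted (depl) and hepatectomised (PHx) liver, with sex by symbol and the group mean as a line. All 4 depleted livers lie above all controls for Cxcl9, Cxcl10, Cxcl11, Ccl3, Ccl4, Ccl5, Ccl24, Ccl17, Ccl22 and Cxcl1, and Cxcl1 is highest after hepatectomy (69.6 to 314 CPM).

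The monocyte chemoattractants and eotaxins act on CCR2 and CCR3. Ccl24 (eotaxin-2), an eosinophil attractant of macrophages, ran from 0.750 to 3.80 CPM in controls (median 2.98), was 64.9, 41.1, 68.6 and 128 CPM in depleted livers and 0.999, 1.66 and 1.52 CPM after hepatectomy. Depleted livers did not overlap with the others and were 27.3-fold above controls (log2 4.77 ± 0.40, edgeR adjusted p = 7.64e-06) and 47.9-fold above hepatectomised livers (edgeR adjusted p = 8.92e-05). Ccl2, the main attractant of CCR2-bearing monocytes, was not past the threshold in any of the 3 comparisons. It ran from 0.429 to 0.914 CPM in controls (median 0.604), was 0.814, 0.314, 3.32 and 6.17 CPM in depleted livers and 0.705, 7.02 and 1.27 CPM after hepatectomy. Only depleted replicates 3 and 4 and hepatectomised replicates 2 and 3 were above all controls. The log2 fold change of depleted against control livers was 2.11 ± 0.77 (edgeR adjusted p = 0.0515), and as low as 0.96 with 1 library left out. The edgeR adjusted p was 0.0417 without depleted replicate 1, 0.0198 without depleted replicate 2 and 0.315 without depleted replicate 4. In depleted against control livers Ccl2 was past the threshold in DESeq2 (adjusted p = 0.0133), and in edgeR with library-size scaling (adjusted p = 0.0470), without the sex term (0.0496) and with only the 2 groups compared (0.0393). Ccl7, encoded next to Ccl2, ran from 0 to 0.135 CPM in controls (median 0.0470), was 0.107, 0.0448, 0.175 and 2.18 CPM in depleted livers and 0.206, 3.17 and 0.399 CPM after hepatectomy. Depleted replicate 4 and hepatectomised replicate 2 held most of its counts.

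Controls held 0 to 6 counts of Ccl7 each, so its fold is poorly fixed. Its rise after hepatectomy passed the threshold by little (log2 4.83 ± 1.38, edgeR adjusted p = 0.0498). It was lost without any 1 control and without hepatectomised replicate 2 (log2 2.58, edgeR adjusted p = 0.301), and came to log2 6.11 without hepatectomised replicate 3. In depleted livers Ccl7 was not called (log2 3.31 ± 1.24, edgeR adjusted p = 0.0585). It was called without depleted replicate 1 or 2 (edgeR adjusted p = 0.0474 and 0.0354), without the sex term (0.0303) and with only the 2 groups compared (0.0451). Its log2 fold change came to 1.00 without depleted replicate 4 (edgeR adjusted p = 0.491). Neighbours of these genes fell under the count filter. Ccl8 had 1, 1, 0, 0, 3 and 0 counts in the controls, 7, 6, 73 and 85 in depleted and 0, 0 and 3 in hepatectomised livers. Ccl12 had 0 to 1 counts in controls, 3, 3, 11 and 42 in depleted and 0, 4 and 8 in hepatectomised livers. In a fit without the filter, over 17229 genes, both were past the threshold in depleted livers (edgeR adjusted p = 0.00192 for Ccl8 and 0.00562 for Ccl12). Ccl11 (eotaxin) had 0 to 5 counts in controls, 0 in all 4 depleted livers, which allows up to 3 counts per library, and 0, 7 and 0 after hepatectomy.

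The CCR4 ligands Ccl17 and Ccl22 are made by dendritic cells and macrophages and draw regulatory and type 2 helper T cells. Ccl22 ran from 0.0536 to 0.445 CPM in controls (median 0.200), was 2.14, 0.650, 5.78 and 3.59 CPM in depleted livers and 0.0882, 0.168 and 0.0998 CPM after hepatectomy. Ccl17 had 0 to 1 counts in each control, 13, 4, 48 and 25 in depleted and 5, 2 and 1 in hepatectomised livers, or up to 0.0247 CPM in controls (median 0.0229), 0.278, 0.0896, 0.838 and 0.557 CPM in depleted livers and 0.147, 0.0561 and 0.0249 CPM after hepatectomy. Both were above all controls in every depleted liver, with replicate 3 highest and replicate 2 lowest (edgeR adjusted p = 0.00063 for Ccl22, log2 3.76 ± 0.63 and 2.86 without depleted replicate 3, and 0.000392 for Ccl17). Since each control held 0 to 1 counts of Ccl17, its fold would rest on the prior count and is not given. Between depleted and hepatectomised livers, the rise of Ccl17 (edgeR adjusted p = 0.0231) was lost without depleted replicate 3 (0.267) or hepatectomised replicate 2 (0.0768) or 3 (0.0978).

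Xcl1, lymphotactin, is made by NK and CD8 T cells and acts on XCR1 of cross-presenting dendritic cells. It ran from 0.120 to 0.360 CPM in controls (median 0.200), was 0.578, 0.426, 0.821 and 2.34 CPM in depleted livers and 0.235, 0.112 and 0.0998 CPM after hepatectomy. The 4 depleted livers lay above all others (log2 2.24 ± 0.52 over controls, edgeR adjusted p = 0.00499; log2 1.53 without depleted replicate 4), and over hepatectomised livers the call was lost without depleted replicate 3 or hepatectomised replicate 2 or 3 (edgeR adjusted p up to 0.108). Dendritic cell markers summed to 5.85 to 10.8 CPM in controls, 33.2, 23.2, 66.7 and 75.0 CPM in depleted livers and 5.02 to 8.16 CPM after hepatectomy. Of the 6 markers 3 were higher and 1 lower in depleted livers, against 18.9% and 15% of all genes. Flt3 was at 0 in 1 control, and the part of these markers in the result was not tested.

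Of the pair of ligands made as membrane proteins, Cxcl16 was called and Cx3cl1 was not. Cxcl16, the ligand of CXCR6 on NKT and tissue-resident T cells, ran from 3.87 to 10.6 CPM in controls (median 9.60), was 22.6, 19.9, 34.2 and 47.9 CPM in depleted livers and 11.2, 4.10 and 8.28 CPM after hepatectomy. Depleted livers lay above all others, 3.49-fold over controls (log2 1.803 ± 0.34, edgeR adjusted p = 0.00146) and 3.82-fold over hepatectomised livers (edgeR adjusted p = 0.00789; 0.0501 without depleted replicate 3). Cx3cl1 (fractalkine), the ligand of CX3CR1, ran from 0.188 to 0.756 CPM in controls, 0.179 to 1.05 CPM in depleted livers and 0.441 to 1.596 CPM after hepatectomy. Its ranges overlapped in all 3 comparisons, and it was not called in any (edgeR adjusted p = 0.707, 0.197 and 0.0969), though it was called lower in depleted than in hepatectomised livers without depleted replicate 4 (log2 -1.78, edgeR adjusted p = 0.0262).

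The homeostatic ligands showed no call against control. Of 9 listed, 7 had enough counts, and 0 of the 7 were called in depleted or hepatectomised livers, where 33.9% and 8.42% of all genes were called; their median log2 fold changes were -0.50 and -0.34. Cxcl12, a product of stellate cells among other stromal cells, ran from 343 to 447 CPM in controls (median 387), was 339, 322, 211 and 271 CPM in depleted livers and 452, 243 and 268 CPM after hepatectomy. The 4 depleted livers lay just below the 6 controls, at a log2 fold change of -0.50 ± 0.20 that missed the threshold (edgeR adjusted p = 0.0720), while DESeq2 gave an adjusted p of 0.0455 at log2 -0.49 and edgeR on only the 2 groups an adjusted p of 0.0176 at log2 -0.54. By contrast the summed level of stellate cell markers was over 4 times lower in each depleted liver than in any control. Ccl27a and Ccl25 were also lower on average in depleted livers without a call. Ccl27a ran from 2.55 to 4.83 CPM in controls (median 2.86), was 1.84, 2.24, 1.14 and 2.23 CPM in depleted livers and 3.15, 1.71 and 2.12 CPM after hepatectomy, and its depleted livers lay below all controls (log2 -0.76 ± 0.31, edgeR adjusted p = 0.0769 and 0.0391 without the sex term, DESeq2 adjusted p = 0.0318, limma-voom adjusted p = 0.0404). Ccl25, the CCR9 ligand best known from gut and thymus, ran from 1.98 to 4.11 CPM in controls (median 2.38), was 1.33, 2.06, 1.41 and 1.54 CPM in depleted livers and 2.23, 2.498 and 1.796 CPM after hepatectomy (depleted against control log2 -0.63 ± 0.26, edgeR adjusted p = 0.0794, 0.0399 without depleted replicate 2 and 0.0403 without the sex term, DESeq2 adjusted p = 0.0336). The deposited counts may split reads of Ccl27a and Ccl21a with near-identical gene copies, so their levels are uncertain.

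Cxcl13, the B cell attractant that acts on CXCR5, had the largest fold range over the 3 hepatectomised livers among the ligands detected in each of them. It ran from 0.240 to 6.49 CPM in controls (median 2.36), was 0.386, 1.12, 0.664 and 0.579 CPM in depleted livers and 20.9, 0.196 and 4.49 CPM in hepatectomised replicates 1 to 3, a 106-fold range within the last group. The lowest livers of each undepleted group were control replicate 6 and hepatectomised replicate 2. They also had the lowest Kupffer cell (75.3 and 83.2 CPM), stellate cell (279 and 302 CPM) and endothelial sums (84.2 and 81.4 CPM) of their groups. Their hepatocyte sums were the lowest as well (66937 and 113741 CPM). Depleted livers had 0.386 to 1.12 CPM of Cxcl13 beside Kupffer cell sums of 953 to 2102 CPM and stellate cell sums of 14.4 to 62.7 CPM. The part of these cells was not tested. Against controls the depleted livers were not called (log2 -1.93 ± 1.01, edgeR adjusted p = 0.164, and 0.0484 with only the 2 groups compared). Cxcl13 was called lower in depleted than in hepatectomised livers (log2 -3.81 ± 1.25, edgeR adjusted p = 0.0448), but the ranges overlapped and the call was lost without any 1 depleted liver and without hepatectomised replicate 1 (log2 -1.52, edgeR adjusted p = 0.307) or 3. Cxcl14 was also uneven, at 0.720 to 2.61 CPM in controls, 0.0214, 0.134, 11.7 and 2.63 CPM in depleted livers and 9.23, 16.3 and 0.973 CPM after hepatectomy, and was not called. Ccl21a, a ligand of CCR7, had 0.0842 to 1.22 CPM over the 13 livers and Ccl28, an epithelial ligand, 0.112 to 0.838 CPM. Neither was called, though between depleted and hepatectomised livers edgeR gave adjusted p = 0.0388 and 0.0323 with library-size scaling, and for Ccl21a 0.0461 without depleted replicate 4 and 0.0379 without hepatectomised replicate 3. B cell markers summed to 2.52 to 5.31 CPM in controls, 18.7 to 31.3 CPM in depleted livers and 0.758 to 4.24 CPM after hepatectomy. They were higher for 4 of 4 in depleted livers (18.9% of all genes), where Cxcl13 was not. After hepatectomy they were lower for 1 of 4 (2.36% of all genes). Their part was not tested. Ccl19 had 0 to 7 counts and Cxcl17 0 to 19 counts per liver, too few for the test.

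**Figure D4:**
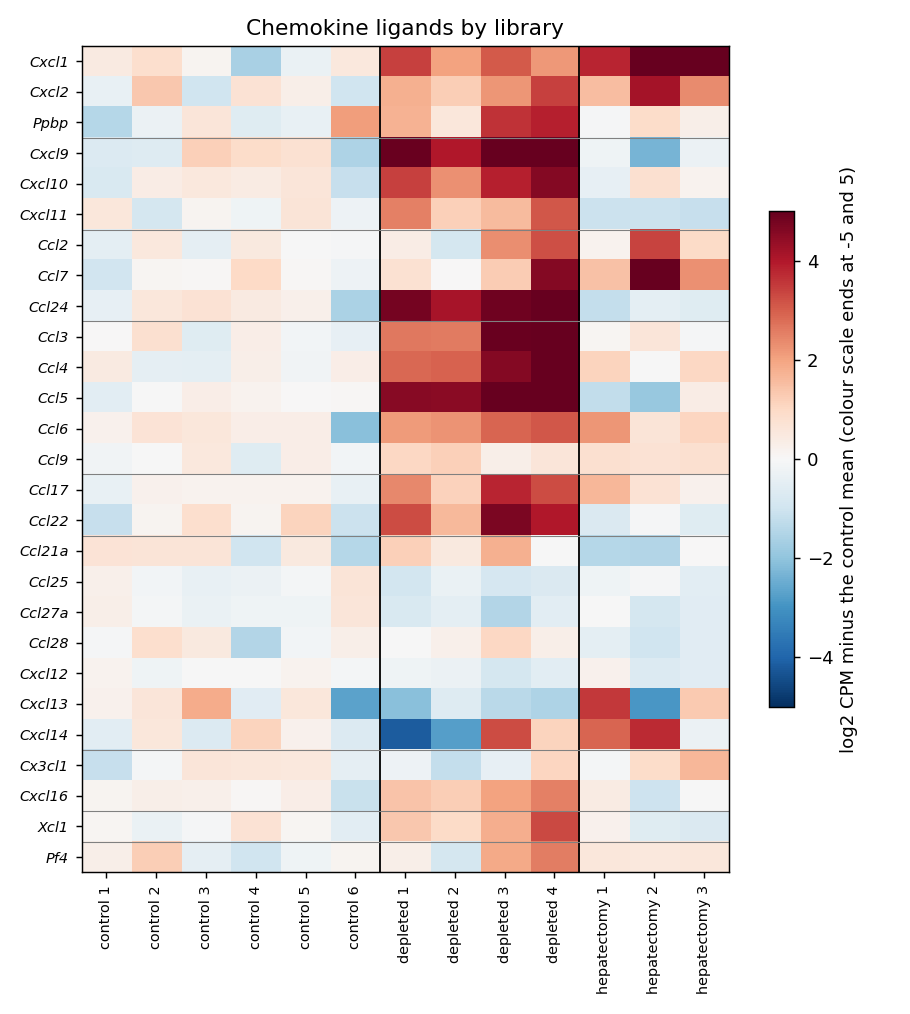
Log2 CPM minus the control mean of the 27 tested ligands (rows, grouped by role) in each of the 13 livers (columns); red is higher and blue lower, and colours end at -5 and 5. The columns of depleted replicates 3 and 4 are darker than those of replicates 1 and 2 for most inflammatory ligands, the homeostatic rows are pale for Cxcl12, Ccl25 and Ccl27a, and the row of Cxcl1 is darkest after hepatectomy.

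The 4 depleted livers were not alike. Of the 17 ligands called higher in them, 12 were highest in replicate 4 and 14 lowest in replicate 2, and in 14 replicates 3 and 4 were both above replicates 1 and 2. The ratio of the highest to the lowest depleted liver ran from 1.88 for Ccl9 to 12.7 for Pf4. The sums of T and NK cell, dendritic cell and Kupffer cell markers, given above, were also higher in replicates 3 and 4 than in 1 and 2, whereas the neutrophil sum was lowest in replicate 4. The exceptions were Cxcl1 and Ccl9, with their highest values in replicates 1 (54.0 CPM) and 2 (195 CPM), and Cxcl11, whose replicate 1 (6.66 CPM) was above replicate 3 (3.42 CPM). With control replicate 6 and depleted replicate 4 both left out, 15 ligands were called in depleted against control livers, beside 34.6% of all genes, the median of the 27 was 1.41, and the log2 fold changes of Cxcl9, Ccl24 and Cxcl1 were 4.59, 4.28 and 2.92.

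The chemokine receptors rose alongside their ligands in depleted livers. Of 17 listed, 12 had enough counts; 11 of the 12 were higher in depleted than in control livers and 0 lower (18.9% and 15% of all genes), with a median log2 fold change of 3.45, and the other, the fractalkine receptor Cx3cr1, was not called (log2 0.65, edgeR adjusted p = 0.344). After hepatectomy 2 of the 12 were higher, Cxcr2 and Ccr1, against 6.06% of all genes. Cxcr2, the neutrophil receptor of Cxcl1 and Cxcl2, ran from 0 to 0.198 CPM in controls, was 7.86, 7.17, 4.35 and 1.74 CPM in depleted livers and 1.18, 1.52 and 1.02 CPM after hepatectomy. It was above all controls in both groups (log2 6.27 ± 0.64, edgeR adjusted p = 1.99e-05, and 4.03 ± 0.64, edgeR adjusted p = 0.0038; the latter log2 4.72 without control replicate 2). Ccr1, the receptor of Ccl3, Ccl5, Ccl6 and Ccl9, ran from 0.0600 to 0.544 CPM in controls, was 6.47, 8.09, 11.4 and 10.8 CPM in depleted livers and 0.911, 2.25 and 1.30 CPM after hepatectomy, again above all controls in both (log2 5.59 ± 0.51 and 2.80 ± 0.52, edgeR adjusted p = 9.97e-06 and 0.0071; the latter log2 3.47 without control replicate 2).

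Cxcr3, Xcr1, Cxcr6 and Cxcr4 rose in depleted livers and were not called after hepatectomy. Cxcr3, the receptor of Cxcl9, Cxcl10 and Cxcl11, was 0.0300 to 0.632 CPM in controls, 3.75, 3.07, 6.27 and 6.53 CPM in depleted livers and 0.147, 0.140 and 0.549 CPM after hepatectomy (depleted against control log2 3.80 ± 0.54, edgeR adjusted p = 0.000192, against hepatectomised 4.04 ± 0.73, edgeR adjusted p = 0.00201). Without depleted replicate 3 these were log2 3.09 and 3.27, and the latter was 4.78 without hepatectomised replicate 3. Xcr1, the Xcl1 receptor, rose by log2 4.14 ± 0.48 over controls, Cxcr6, the Cxcl16 receptor, by 3.90 ± 0.54, and Cxcr4, the Cxcl12 receptor, by 3.63 ± 0.45 (edgeR adjusted p = 4.57e-05, 0.000173 and 7.9e-05; Xcr1 log2 3.41 without depleted replicate 3). Cxcl12 itself, the ligand of Cxcr4, was not called. The summed receptor level was 3.16 to 10.6 CPM in controls, 52.6 to 93.6 CPM in depleted livers and 5.47 to 8.70 CPM after hepatectomy. The T and NK cell, neutrophil, dendritic cell and B cell marker sums given above were also higher in every depleted liver than in any control, and their part in the receptor values was not tested. Among 5 atypical receptors, which bind chemokines without G protein signalling, Ccrl2 was higher (log2 2.01 ± 0.35, edgeR adjusted p = 0.000791) and Ackr4, which clears Ccl19, Ccl21 and Ccl25, lower in depleted livers (log2 -1.95 ± 0.43, edgeR adjusted p = 0.00357), and 0 of 5 were called after hepatectomy. Over all genes 18.9% were higher and 15% lower in depleted livers and 8.42% changed after hepatectomy, so nothing is read from these counts.

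**Figure D5:**
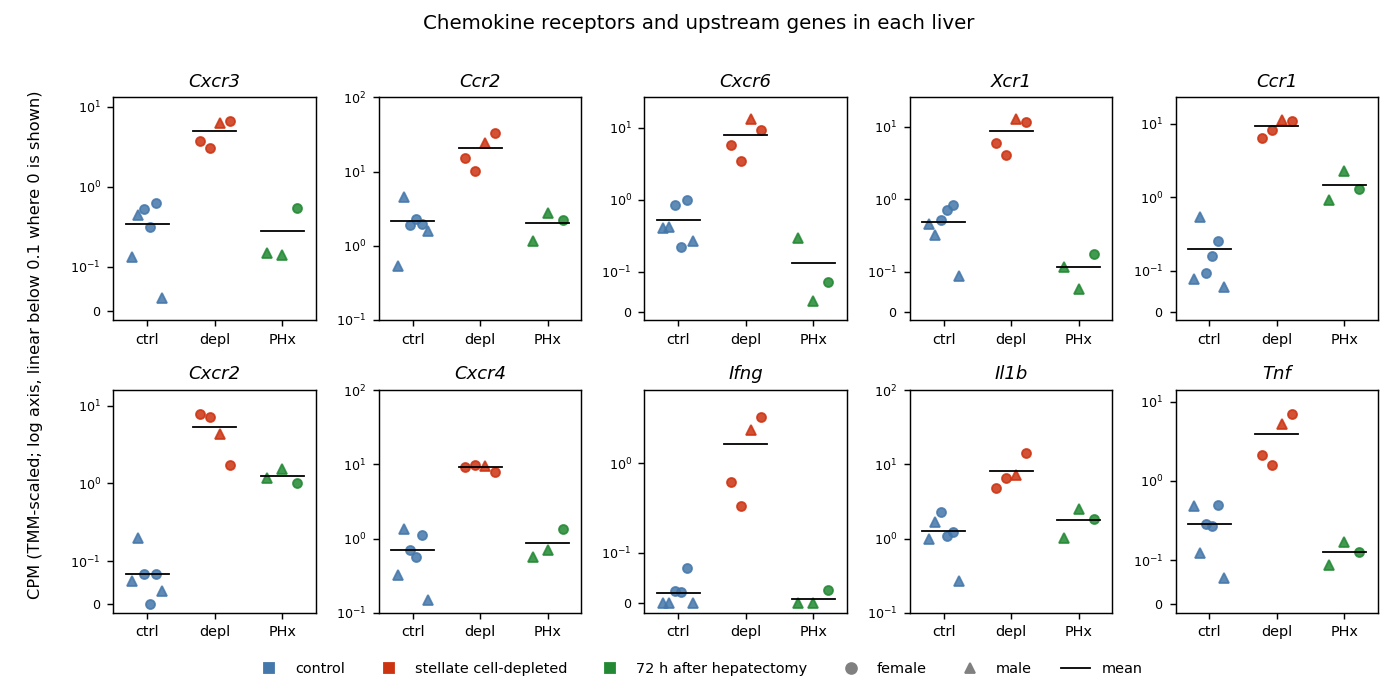
CPM (TMM-scaled, log axes, linear below 0.1 where 0 is shown) of 7 chemokine receptors and 3 upstream genes in each control (ctrl), depleted (depl) and hepatectomised (PHx) liver, with sex by symbol and the group mean as a line. All 10 genes lie above every control in the 4 depleted livers, and among hepatectomised livers Cxcr2 (1.02 to 1.52 CPM) and Ccr1 (0.911 to 2.25 CPM) lie above every control.

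Of 24 upstream cytokines, receptors and regulators, 19 had enough counts, and 15 of these were higher and 0 lower in depleted livers (18.9% and 15% of all genes), with a median log2 fold change of 1.33. Ifng, encoding interferon gamma, had 0 to 0.0702 CPM in controls, 0.621, 0.336, 2.34 and 3.23 CPM in depleted livers and 0, 0 and 0.0249 CPM after hepatectomy (depleted against control edgeR adjusted p = 0.000194). Depleted replicates 3 and 4, with the most Cxcl9 and Cxcl10, also had the most Ifng. These livers were above replicates 1 and 2 for 14 of the 17 ligands called in depleted livers. Cxcl11, higher in replicate 1 than in replicate 3, was an exception. The part of Ifng in the ligand levels was not tested. Ltb, Tnf and Irf8 rose by log2 3.85 ± 0.45, 3.76 ± 0.55 and 3.52 ± 0.33 in depleted livers (edgeR adjusted p = 4.78e-05, 0.000252 and 1.34e-05). After hepatectomy 3 of the 19 were higher and 0 lower (6.06% and 2.36% of all genes): the interleukin 1 receptor Il1r1 (log2 2.65 ± 0.41), the NF-kappa B feedback inhibitor Tnfaip3 (1.36 ± 0.20) and the TNF receptor Tnfrsf1a (0.79 ± 0.15), with edgeR adjusted p = 0.00388, 0.00233 and 0.00773. Il1r1 was 72.7, 327 and 222 CPM in hepatectomised replicates 1 to 3, against 20.1 to 57.7 CPM in controls. Cxcl1 was also lowest in replicate 1 of that group, but highest in replicate 3. Il1r1 was called higher in depleted livers too (log2 1.33), a call lost without depleted replicate 2 or 3 (edgeR adjusted p = 0.0560 and 0.0913). The part of Il1r1 in the Cxcl1 level was not tested.

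Many of the ligands lie in clusters (GRCm38, GENCODE M21), and the values are counts over whole genes. Beside the counts per cluster stand 18.9% of all genes higher in depleted and 6.06% higher in hepatectomised livers. Of the leading ligands, Cxcl1 (ENSMUSG00000029380.11) spans chr5:90891241-90893115, Cxcl9 (ENSMUSG00000029417.9) chr5:92321347-92328079, Ccl24 (ENSMUSG00000004814.8) chr5:135569937-135573049, Ccl5 (ENSMUSG00000035042.2) chr11:83525778-83530518 and Cxcl12 (ENSMUSG00000061353.9) chr6:117168535-117181367. The 7 genes Cxcl5, Ppbp, Pf4, Cxcl3, Cxcl15, Cxcl1 and Cxcl2 span 146.6 kb of chromosome 5 (90759360 to 90905938), and 4 of the 4 tested were higher in depleted livers and 2 of 4 after hepatectomy. The CXCR3 ligands span 44.1 kb of the same chromosome (92321347 to 92365485), with 3 of 3 higher in depleted livers and 0 of 3 after hepatectomy. On chromosome 11, Ccl5, Ccl9, Ccl6, Ccl3 and Ccl4 lie within 138.9 kb (83525778 to 83664683), with 5 of 5 higher in depleted livers and 1 of 5 after hepatectomy. Ccl2, Ccl7, Ccl11, Ccl12 and Ccl8 lie within 81.2 kb of that chromosome (82035571 to 82116799), where of the 2 tested 0 were higher in depleted livers and 1 after hepatectomy. Neighbours could differ within a cluster. Cx3cl1 lies between Ccl22 and Ccl17 within 66.4 kb of chromosome 8 (94745590 to 94812036), and both flanking genes were called higher in depleted livers while Cx3cl1 was not. Whether its change differed from theirs was not tested.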

How the data were processed

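Whole-liver RNA of 13 mouse samples was sequenced from stranded mRNA libraries (TruSeq, per the labels' protocols). The authors deposited raw counts by gene in 1 table that also holds gene lengths. STAR 2.7.1a, SAMtools 1.15.1, featureCounts 1.6.4 and the build mm10 are named, per the submitters' processing notes, without parameters. How multi-mapped reads and strand were handled is not given in the sources used here, so near-identical, overlapping and antisense genes are uncertain. Identifiers were matched to GENCODE M21 symbols (21741 of 22048), and 99.94% of the matched genes overlapped the same gene on GRCm38.

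Counts were tested with edgeR 4.0.16 in R 4.3.3 (filterByExpr, TMM scaling, robust glmQLFit, glmQLFTest, two-sided) on group and sex over all 13 libraries. P-values were adjusted by Benjamini-Hochberg over the 13831 genes kept, with a threshold of 0.05. CPM are TMM-scaled; a prior count of 2 was added for log2 CPM. The common biological coefficient of variation was 31.4%, with 9 residual degrees of freedom. The scripts were tested on simulated data. Within groups, library pairs differed by more than sampling noise (lowest median chi-square per gene 4.60, against 0.45 for a library sequenced again).

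Alternatives were library-size scaling, RLE, no low-count filter, DESeq2 1.42.0, limma-voom 3.58.1, no sex term, only the 2 groups compared, a replicate block, female livers alone and each library left out. Leaving out control replicate 6 with depleted replicate 4 was added after seeing the data.

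The members, roles, pathway lists and cell type markers were chosen with earlier results of these data known. Members past the threshold in any comparison, or with at least 1 CPM in all libraries of a group, are given by library. From the receptor and upstream lists, called genes are named by size of change, at most 10 per comparison. Cx3cr1, Ccrl2, Ackr4, Clec4f and, in the receptor plot, Ccr2 and Il1b fall outside this rule and were picked with their values known. Other called members are given as counts. A receptor and an upstream regulator were left out of these lists and are not reported here.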

Additional observations from a re-analysis of the deposited data

Results flagged for a closer look

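Among 54 groups of 4 or 6 livers of the 27 tested ligands, 2 held a liver far from the rest of its group, where chance at 1 in 20 gives 2.7. Both concern control replicate 6. Its Ccl6 level was 1.44 CPM, against 7.26 to 10.1 CPM in the other 5 controls, a gap of 0.831 of the group's range in log2 CPM. Its Cxcl16 level was 3.87 CPM, against 8.63 to 10.6 CPM, a gap of 0.792 of the range in log2 CPM. Both gaps exceed the 95% critical value of Dixon's test for 6 samples. The same liver had the lowest Kupffer cell and endothelial marker sums of the controls (75.3 and 84.2 CPM), and their part was not tested. Without it, both ligands were still called higher in depleted livers.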

How the results depend on the processing

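In depleted against control livers 12 of the 17 called ligands passed the threshold in every setting (Cxcl1, Cxcl9, Cxcl10, Cxcl11, Ccl24, Ccl3, Ccl4, Ccl5, Ccl6, Ccl17, Ccl22 and Cxcl16). In depleted against hepatectomised livers 8 of 14 did, and after hepatectomy 1 of 4, Cxcl1. No called value changed sign in any setting run. Of the alternative values for ligands called in depleted against control livers, 315 passed the threshold and 25 missed it; for the others 19 passed it and 180 did not. Leaving out 1 library gave 14 to 19 called ligands in depleted against control, 1 to 3 in hepatectomised against control and 9 to 15 in depleted against hepatectomised livers, beside 21.6% to 35.2%, 3.46% to 9.66% and 12.3% to 28.1% of all genes. With only the 2 groups compared, 2 ligands were called after hepatectomy instead of 4 (7.03% of all genes). Female livers alone gave 12 ligands in depleted against control livers, from fewer samples (19.7% of all genes). DESeq2 called 21 ligands in depleted livers, 18 higher and 3 lower (Cxcl12, Ccl25 and Ccl27a), beside 20.6% and 17% of all genes. Scaling to library size alone moved the all-gene median (log2) to -0.24 after hepatectomy and to 0.27 in depleted against hepatectomised livers, and the ligand median after hepatectomy to -0.13. It turned round the balance of all genes called after hepatectomy (4.53% higher and 11.3% lower). After hepatectomy the fit without the low-count filter lost Ccl7 (edgeR adjusted p = 0.0562) and called Cxcl5 (0.0371), leaving 4; Ccl7 was also lost in limma-voom (adjusted p = 0.0823). Low counts limit Cxcl2, Ccl7, Ccl17 and the 8 ligands not tested.

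Same-numbered livers are not stated to share an animal or batch. After group and sex means were removed, the deviations of same-numbered livers correlated at -0.10 to 0.42 over the 4 control and depleted pairs, at -0.19 to 0.08 over the 3 control and hepatectomised pairs and at 0.04 to 0.27 over the 3 depleted and hepatectomised pairs, so the numbers were not taken to pair the livers. From group means alone the control and hepatectomised pairs, each of 1 sex, correlated at 0.11 to 0.52. With a replicate block, 16 ligands were called in depleted against control livers, 2 after hepatectomy (Cxcl1 and Ccl7, with Cxcl2 at an edgeR adjusted p of 0.0629 and Ccl9 at 0.0766) and 12 in depleted against hepatectomised livers, beside 28.1%, 4.57% and 22.9% of all genes. It lost Pf4 (edgeR adjusted p = 0.233) in the first and Cxcl1 (0.0593), Ccl17 (0.0556), Ppbp (0.0623) and Cxcl13 (0.241) in the last comparison, where it called Ccl21a (0.0229) and Cxcl14 (0.0302).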
